A study of Mus musculus with 6 samples.

Results

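Pnpla2, G0s2, Scd1 and Angptl4, genes that govern the release and storage of fat, were examined in stromal cells of mouse bone marrow that lack Snai2. These 4 genes were chosen by name from the 1285 genes of the authors' deposited comparison, after earlier results of the same data were known. That table lists genes with an unadjusted p below 0.05, so presence in it is part of how the 4 were chosen and is no finding. The cells were mesenchymal stem and progenitor cells (MSPCs) of adult mice at 8 weeks of age. Snai2-/- animals gave 3 libraries and their Control littermates gave 3, and the table's header calls the Control group wildtype. Both groups carried Nes-GFP, a green fluorescent reporter that marks nestin-positive stroma, and about 2000 cells per library were sorted as GFP-positive and free of CD45, Ter119 and CD31, which leukocytes, red-cell precursors and endothelial cells bear on their surface. The labels do not say whether each library came from its own animal. The table used here gives 1 mean per group, and values of single libraries were not analysed here, so no error stands beside any value and overlap between libraries cannot be judged.

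Fat is held in lipid droplets as triglyceride. Adipose triglyceride lipase, the product of Pnpla2, removes the first fatty acid, and hormone-sensitive lipase and monoacylglycerol lipase remove the rest. The small protein G0S2 binds this lipase and blocks it. Stearoyl-CoA desaturase, the product of Scd1, puts a double bond into saturated fatty acids before they are stored or built into membranes. ANGPTL4 is secreted and inhibits lipoprotein lipase, the enzyme that frees fatty acids from circulating lipoproteins for uptake. Bone marrow stroma contains the progenitors of marrow adipocytes and of osteoblasts. Snai2 encodes Slug, a transcriptional repressor that binds E-box sequences, and the comparison asks what its loss changes in these niche cells.

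Promoter sequences of Pnpla2 and G0s2 are shown because Snail-family proteins recognise the E-box hexamer CAGGTG, which reads CACCTG on the opposite strand, and each window holds it. Of the 4 genes, 2 matched an entry of the RefSeq promoter table (build GRCm38.p6), and Scd1 and Angptl4 did not. Each sequence is the 250 bases before the RefSeq start, 5′ to 3′ on the gene's strand, with the hexamer in capitals. The Pnpla2 window is chr7:141454938-141455187 on the plus strand and the G0s2 window is chr1:193273189-193273438 on the minus strand. The GENCODE model of G0s2 starts 29 bases earlier than the RefSeq start, inside this window. The GENCODE model of Pnpla2 starts at 141455198, later than the RefSeq start. The 50 bases past that RefSeq start are not found whole in any GENCODE transcript of Pnpla2. Distances below are counted from the RefSeq starts.

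Pnpla2: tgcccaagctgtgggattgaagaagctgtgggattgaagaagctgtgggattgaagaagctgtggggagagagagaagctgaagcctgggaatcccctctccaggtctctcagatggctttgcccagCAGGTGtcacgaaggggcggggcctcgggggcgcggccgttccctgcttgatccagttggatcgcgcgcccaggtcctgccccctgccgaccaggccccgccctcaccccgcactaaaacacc
G0s2: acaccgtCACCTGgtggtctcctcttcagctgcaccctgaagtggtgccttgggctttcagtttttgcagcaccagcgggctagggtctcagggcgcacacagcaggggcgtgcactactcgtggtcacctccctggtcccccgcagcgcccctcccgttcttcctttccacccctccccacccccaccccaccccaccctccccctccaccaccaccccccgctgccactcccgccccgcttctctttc

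The match began 123 bases before the start in Pnpla2 (CAGGTG) and 243 bases before it in G0s2 (CACCTG). Among all 32851 promoter windows, 17.2% held either form in the same 250 bases, so the hexamer is common. The broader E-box CANNTG, which includes both forms, occurred 3 times in Pnpla2 and 2 times in G0s2, and 72.3% of all windows extended to 50 bases past the start held it. No copy of AGGTCA or of its reverse complement TGACCT, the hexamer bound by many nuclear receptors, lay in either window extended in that way, against 16.3% of all such windows. The direct repeat of AGGTCA with 1 base between the copies, named DR1 and bound by PPAR with RXR, was therefore absent too, and 0.0396% of all windows held it. The TATA box TATAAA or its reverse complement TTTATA lay in neither extended window and in 13.6% of all of them. A match describes these letters and does not show that a factor binds there. GC content was 63.2% for Pnpla2 and 67.2% for G0s2, against a median of 52.4% over all windows.

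Pnpla2, the lipase gene (GRCm38 chromosome 7, 141455198 to 141460743, plus strand), averaged 75.0 in Snai2-/- cells against 27.2 in Control cells per the authors' deposited table, on a scale normalized by the authors in a unit that the header leaves out. The ratio of Snai2-/- to Control was 2.76 (log2 1.46), with an unadjusted p of 0.00324 and a false discovery rate (FDR, a p adjusted over all genes tested) of 0.356 per the authors' deposited table. It ranked 152 of 1285 listed genes by p, the first of the 4. No other annotated gene overlaps Pnpla2, and none of its 3155 distinct transcript stretches of 50 bases occurs in transcripts of another gene.

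G0s2, the gene of the lipase inhibitor (chromosome 1, 193272161 to 193273217, minus strand), averaged 169.9 in Snai2-/- cells against 123.1 in Control cells per the authors' deposited table. The ratio was 1.38 (log2 0.47), with an unadjusted p of 0.0350 and an FDR of 0.612 per the authors' deposited table. This was the smallest ratio of the 4, at 572 of the 631 listed genes with a higher mean in Snai2-/- cells. With both groups scaled to equal sums over the listed genes, its log2 ratio was 0.10. The span of Lamb3, a laminin gene on the opposite strand, overlaps G0s2. None of the 822 distinct 50-base stretches of G0s2 transcripts occurs on either strand in annotated transcripts of another gene, Lamb3 included. The library chemistry named in the labels does not mark strand, so only reads of Lamb3 RNA outside its annotated transcripts, such as introns, could not be told apart there. Lamb3 itself was not listed.

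Scd1, the desaturase gene (chromosome 19, 44394455 to 44407879, minus strand), averaged 97.6 in Snai2-/- cells against 32.3 in Control cells per the authors' deposited table. Its ratio of 3.02 (log2 1.59) was the largest of the 4, with an unadjusted p of 0.0163 and an FDR of 0.499 per the authors' deposited table. Scd1 has close paralogs beside it on the same chromosome. Of its 4888 distinct 50-base stretches, 4.56% recur in transcripts of other genes, 3.42% in Scd3, 2.97% in Scd2 and 1.72% in Scd4, so a small part of its reads could be shared. Scd2, Scd3 and Scd4 were not listed.

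Angptl4, the gene of the secreted lipoprotein lipase inhibitor (chromosome 17, 33773750 to 33781830, minus strand), averaged 790.5 in Snai2-/- cells against 411.3 in Control cells per the authors' deposited table. The ratio was 1.92 (log2 0.94), with an unadjusted p of 0.0130 and an FDR of 0.473 per the authors' deposited table. With equal sums over the listed genes the log2 ratio was 0.58. None of its 3584 distinct 50-base stretches recurs in another gene's transcripts, and no annotated gene overlaps it.

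**Figure D1:**
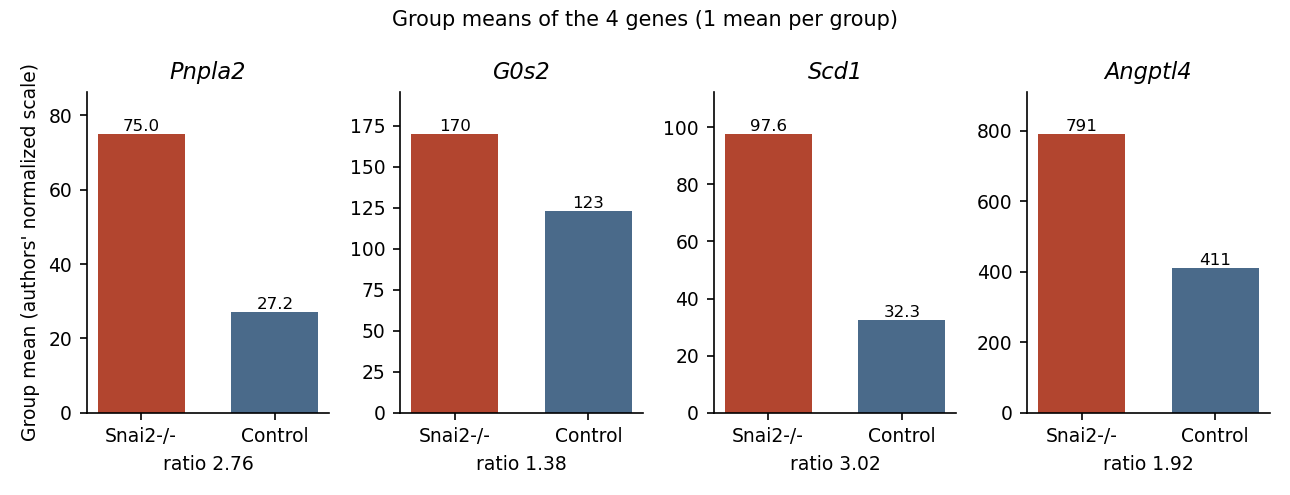
Group means of Pnpla2, G0s2, Scd1 and Angptl4 on the authors' normalized scale (vertical axis, from 0, set separately for each gene), with Snai2-/- at left and Control at right in each panel. Bars are the authors' means over the 3 libraries of a group and carry no error. The Snai2-/- bar is the taller in each of the 4 panels, with ratios of 2.76, 1.38, 3.02 and 1.92.

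The 4 genes had a higher mean in Snai2-/- cells, and 0 of 4 passed an FDR of 0.05 per the authors' deposited table. Of all 16718 genes tested, 0 passed that limit (0%) and 1285 had an unadjusted p below 0.05 (7.69%), 631 of them higher (3.77%) and 654 lower (3.91%). An unadjusted p below 0.01 was given for 1 of the 4, Pnpla2, and for 365 of the 1285 listed genes, which are 2.18% of all genes tested. Because the 4 were drawn from these 1285, nothing is read from their count. Their median log2 ratio was 1.20, beside 1.19 over the 631 higher genes and -0.36 over all listed genes. Ratios of at least 2 were found for Pnpla2 and Scd1 and for 353 of the 631 higher genes. By total signal, all 4 were among the highest 321 listed genes, whose median absolute log2 ratio was 0.60. Whether that signal is corrected for gene length is not stated. G0s2 lay below that median, and the other 3 lay above it. Snai2 itself averaged 9.20 in Snai2-/- cells against 636.0 in Control cells per the authors' deposited table.

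**Figure D2:**
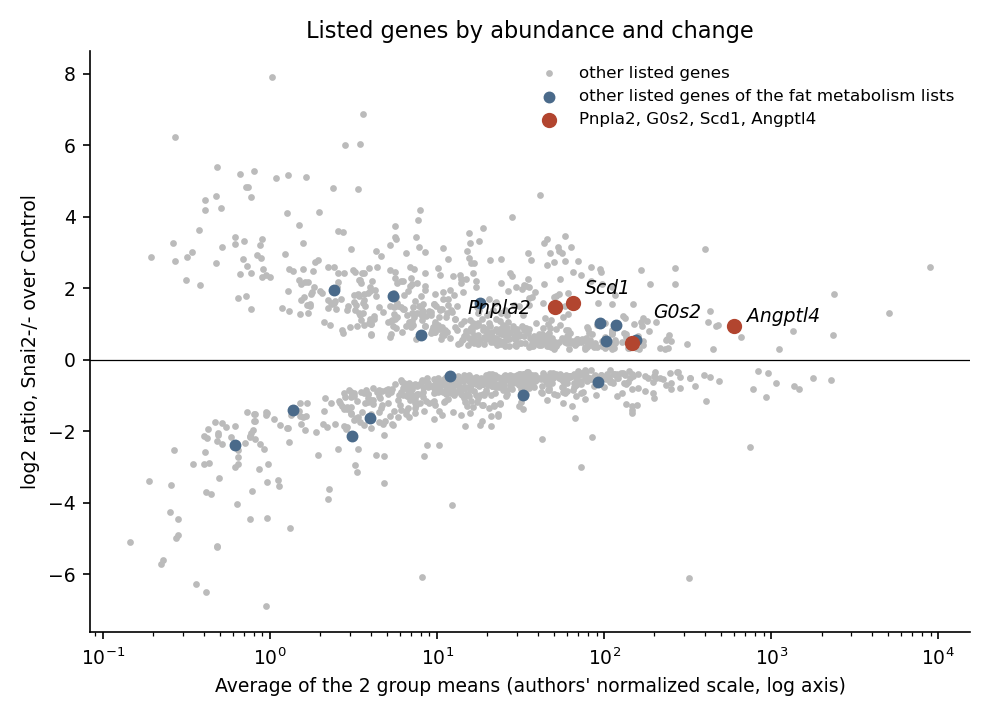
Log2 ratio of Snai2-/- over Control (vertical axis) against the average of both group means (horizontal log axis, authors' normalized scale) for the listed genes, leaving out 7 with a group mean of 0.0001. Grey points are listed genes, blue points are those of the fat metabolism lists and red points are the 4 genes, which lie at log2 ratios of 0.47 to 1.59 towards the abundant side. The empty band around 0 reflects that genes with a p of 0.05 or more are not listed.

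Lipase and inhibitor were not higher by the same factor. The ratio of the G0s2 mean to the Pnpla2 mean in Snai2-/- cells was 50.1% of that in Control cells, a log2 change of -0.998. Gene length and any factor shared by a whole group cancel in this change, but a rescaling of single libraries would not, and the change has no error and was not tested. Scd1 relative to Pnpla2 stood at 109.5% of its Control ratio, and Angptl4 relative to Pnpla2 at 69.7%. Pnpla2 and Scd1 thus had nearly the same ratio, and Angptl4 and G0s2 had smaller ones.

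Other genes of fat metabolism were taken from 8 lists, 172 genes together with the 4. Of these, 19 were listed (11.0%), 12 higher and 7 lower. Without Pnpla2, G0s2, Scd1 and Angptl4, 15 of 168 were listed (8.93%), 8 higher and 7 lower, close to the 7.69% of all genes tested. The median log2 ratio of those 15 was 0.52, beside -0.36 over all listed genes. With so even a split, it is the value of Acadm, the lowest of the 8 higher genes, and the next gene below is Mvk at -0.46, so no shift of the 15 is read from it. None passed an FDR of 0.05 per the authors' deposited table. A gene missing from the table was either untested or had a p of at least 0.05, and which of these holds is not known. The 8 lists are selections, so each count holds for its list and not for a whole pathway. Listed genes of fat or sterol metabolism outside them include Gpd1, Abhd6, Ebp and Pmvk, with log2 ratios of 2.43, 1.92, 0.74 and 0.54. They also include Elovl4, Hcar1 and Hsd17b7, with log2 ratios of -1.08, -0.71 and -0.46.

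Among 26 genes of lipolysis and the droplet coat, 6 were listed (23.1%, beside 7.69% of all genes tested), 3 higher and 3 lower. Pnpla2 and G0s2 are among the 6 by choice, so nothing is read from that share. Mgll, which encodes the monoacylglycerol lipase that completes triglyceride breakdown, averaged 26.9 in Snai2-/- cells against 8.99 in Control cells per the authors' deposited table, that is 2.996 times the Control level. Adrb3, the beta-adrenergic receptor gene through which catecholamines start lipolysis in adipocytes, averaged 1.14 in Snai2-/- cells against 5.02 in Control cells per the authors' deposited table. Prkar2b, a regulatory subunit gene of protein kinase A, averaged 22.1 in Snai2-/- cells against 43.6 in Control cells per the authors' deposited table. Cideb, of a family of droplet proteins, averaged 0.199 in Snai2-/- cells against 1.04 in Control cells per the authors' deposited table. Lipe, for hormone-sensitive lipase, Abhd5, for the activator of the Pnpla2 lipase, and the 5 perilipin genes Plin1 to Plin5 were not listed.

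Among 27 genes of fatty acid synthesis, elongation and desaturation, 4 were listed (14.8%), 3 higher and 1 lower, with Scd1 included by choice. Elovl5, an elongase of polyunsaturated fatty acids, averaged 156.1 in Snai2-/- cells against 79.1 in Control cells per the authors' deposited table, that is 1.97 times the Control level. Its unadjusted p of 0.000971 (FDR 0.312) per the authors' deposited table was below that of each of Pnpla2, G0s2, Scd1 and Angptl4. Tecr, the reductase of the last elongation step, had a ratio of 1.47 per the authors' deposited table. Fads1, a desaturase of polyunsaturated fatty acids and so unlike Scd1 in substrate, averaged 72.0 in Snai2-/- cells against 110.8 in Control cells per the authors' deposited table, that is 0.649 times the Control level. Fasn, Acaca and Srebf1, which make fatty acids or control that synthesis, were not listed. Of 23 genes chosen for triglyceride synthesis and droplet formation, Dgat1 and Dgat2 among them, 0 were listed. Gpd1, which makes glycerol 3-phosphate, and the elongase gene Elovl4 were listed but are on neither of these lists.

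Among 20 genes of lipoprotein lipase control and fatty acid uptake, 3 were listed (15%), 2 higher and 1 lower, with Angptl4 included by choice. Beside Angptl4 these were Fabp5, a fatty acid binding protein with a ratio of 1.62, and Slc27a3, of the fatty acid transport protein family, with a ratio of 0.326 per the authors' deposited table. Lpl, the lipase that ANGPTL4 inhibits, was not listed. Of 29 fatty acid oxidation genes, 2 were listed and both were higher. Acaa2, the mitochondrial thiolase, averaged 126.5 in Snai2-/- cells against 62.2 in Control cells, and Acadm, the medium-chain dehydrogenase, averaged 120.8 in Snai2-/- cells against 84.1 in Control cells per the authors' deposited table. The share listed, 6.90%, is near the 7.69% of all genes. The 29 are a selection. Listed genes of fatty acid or carnitine metabolism outside them include the lower genes Acad12, Acsf2 and Bbox1, with log2 ratios of -0.80, -0.70 and -1.57.

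PPARs are nuclear receptors activated by fatty acids, and Pnpla2, G0s2, Scd1 and Angptl4 are all known as their targets. Of 27 PPAR receptors, partners and known targets, 5 were listed (18.5%, beside 7.69% of all genes tested), these 4 and Ppara. The 4 were chosen as listed genes, so nothing is read from that share, and beyond them only Ppara of these 27 was listed. This list is a selection, and PPAR targets outside it, such as the listed oxidation genes Acadm and Acaa2, are not counted in it. Ppara itself averaged 0.744 in Snai2-/- cells against 1.99 in Control cells per the authors' deposited table, that is 0.374 times the Control level. Pparg, Ppard and the other targets on the list, such as Pdk4, Plin2, Cpt1a and Cd36, were not listed. The other 22 genes of that list gave no listed gene. Of 21 genes of sterol synthesis and its control, 2 were listed. These were Abcg1, a cholesterol exporter, with a ratio of 3.88 and Mvk, mevalonate kinase, with a ratio of 0.729 per the authors' deposited table. Ebp, Pmvk and Hsd17b7, of sterol synthesis too, were also listed but are not among those 21.

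**Figure D3:**
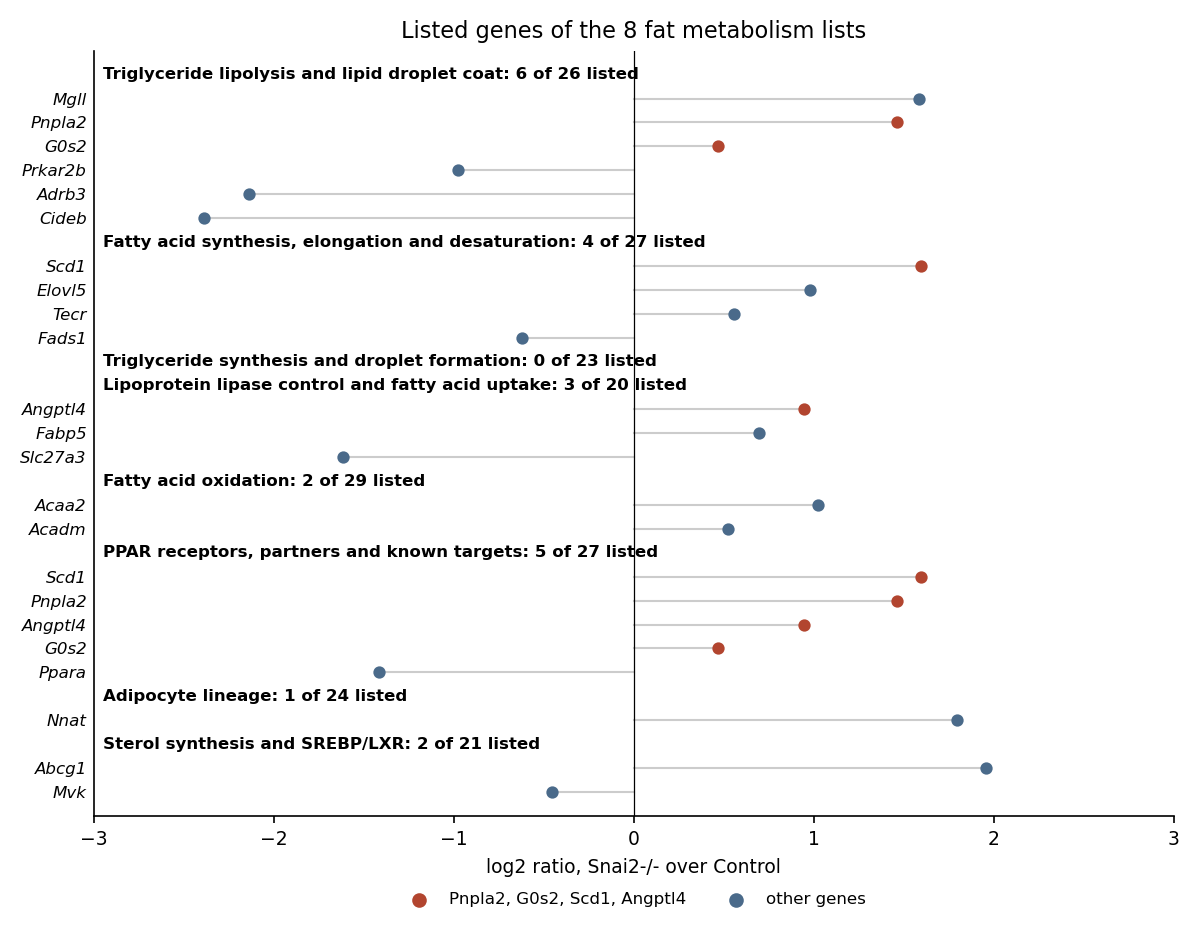
Log2 ratio of Snai2-/- over Control (horizontal axis) for each listed gene of the 8 fat metabolism lists, with the number listed beside each list's name. Red points are Pnpla2, G0s2, Scd1 and Angptl4, which recur under the PPAR list, and blue points are other genes. Points lie on both sides of 0, 12 genes higher and 7 lower.

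Markers of adipocytes, of stroma and of other cells of the marrow were read from the same table. Of 24 adipocyte-lineage genes, 1 was listed (4.17%, beside 7.69% of all genes tested), Nnat (neuronatin). It averaged 8.46 in Snai2-/- cells against 2.43 in Control cells per the authors' deposited table. Of 10 adipocyte markers, Adipoq, Plin1, Cidec and Fabp4 among them, 0 were listed. Of 16 markers of stroma and its progenitors, Ebf1 was listed, with a ratio of 0.58 per the authors' deposited table. These 16 markers therefore allow no fuller check of the labelled cell type.

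Neutrophils also express G0s2. Of 20 neutrophil and monocyte markers, 7 were listed (35%) and 7 were higher, beside 7.69% listed and 3.77% higher over all genes tested, with summed means of 820.1 in Snai2-/- and 186.4 in Control cells. The most abundant listed ones, the granule protein gene Ngp and the calprotectin subunit gene S100a9, had ratios of 5.72 and 2.95 per the authors' deposited table. S100a8, Elane, Mpo and Lyz2 were not listed. Of 12 general leukocyte markers 1 was listed (8.33%), Cd48, which averaged 3.64 in Snai2-/- cells against 1.21 in Control cells per the authors' deposited table. Of 12 erythroid markers 1 was listed (8.33%), the carbonic anhydrase gene Car1. It averaged 137.1 in Snai2-/- cells against 45.7 in Control cells per the authors' deposited table. Of 12 endothelial markers 2 were listed (16.7%), Flt4 with a ratio of 2.09 and Vwf with a ratio of 0.0598 per the authors' deposited table. Of 12 osteoblast markers 6 were listed (50%), 5 higher and 1 lower, with summed means of 24024 in Snai2-/- and 6036 in Control cells, most of it from Col1a1 and Spp1. These marker lists were chosen with earlier results of the same data known, so nothing is read from the shares listed. The part of any of these cell types in the values of Pnpla2, G0s2, Scd1 and Angptl4 was not tested, and in bulk RNA more cells of a type and more RNA per cell cannot be told apart.

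The 4 genes lie on 4 different chromosomes, none of them chromosome 16, which holds Snai2. Within 250 kb of Pnpla2, which has 25 other protein-coding genes in that window, 2 were listed. Cracr2b, a calcium-channel regulator gene on the same strand that starts 351 bases past the end of Pnpla2, averaged 9.93 in Snai2-/- cells against 2.17 in Control cells per the authors' deposited table, that is 4.57 times the Control level. Irf7, an interferon regulator 188.7 kb away, had a ratio of 0.543 per the authors' deposited table. Near G0s2, 1 of 8 was listed. This was Hsd11b1, 8.1 kb away on the same strand and encoding the enzyme that regenerates active glucocorticoid, which averaged 52.8 in Snai2-/- cells against 32.2 in Control cells per the authors' deposited table. Near Angptl4, 2 of 28 were listed, Kank3 at 28.7 kb with a ratio of 2.76 and Cd320 at 61.3 kb with a ratio of 0.622 per the authors' deposited table. Near Scd1, 0 of 10 were listed. Over all genes tested, 7.69% were listed, and nothing is read from counts this small. Which of the other neighbours were tested is not known.

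For each of the 4, the 3 listed genes nearest in both group means were found by Euclidean distance over the log2 means of the 2 groups. Ppa1, for an inorganic pyrophosphatase, Mrap and the secreted ligand gene Wnt4 lay nearest to Pnpla2, at distances of 0.068, 0.13 and 0.23. Mrap encodes the accessory protein of melanocortin receptors and averaged 80.8 in Snai2-/- cells against 28.5 in Control cells per the authors' deposited table. The membrane protease gene Adam9, Tmed5 and Txndc15 lay nearest to G0s2, at 0.088, 0.11 and 0.12, with ratios of 1.40, 1.41 and 1.26 per the authors' deposited table. C1qtnf5, the matrix protein gene Tgfbi and Eva1c lay nearest to Scd1, at 0.11, 0.20 and 0.21, with ratios of 2.79, 2.82 and 2.45 per the authors' deposited table. The tetraspanin gene Cd9, Tsc22d1 and the Wnt inhibitor gene Wif1 lay nearest to Angptl4, at 0.32, 0.47 and 0.50, and so farther than the nearest of the other 3. With 2 values per gene, such nearness says only that level and ratio are alike.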

How the data were processed

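Per the labels' protocols, sequencing libraries of sorted MSPCs (3 Snai2-/-, 3 Control) came from SMART-Seq v4 amplification and the Nextera XT kit. Tools named in the submitters' processing notes are HTSeq, edgeR 3.12.0 and Trim Galore, with the build mm10 and no roles. The aligner and the test model were not given in the sources used here.

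Per the file headers, the authors deposited an unadjusted p-value, a step-up FDR, a ratio of group means, a signed fold change (a score that repeats the ratio, negative for lower genes) and a normalized mean signal per group. The headers' mutant and wildtype were taken to be Snai2-/- and Control. The total column deposited by the authors is 3 times the 2 means added together, with 0 whole numbers in it, so depth is unknown. The design foresaw a model fit only for values per library, so none was run, and the authors' p and FDR are quoted. These p-values measure only the spread between libraries, which may be technical. Selection at p below 0.05 biases listed ratios away from 1.

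The number of genes tested, 16718, was recovered from FDR, rank and p, a step tested on simulated data. The 4 genes and the 18 lists were chosen with earlier results of these data known. By rule the genes named are the 4, the listed genes of the fat lists, the 3 nearest to each of the 4, listed genes within 250 kb, and the 2 most abundant of a marker list. Lamb3 was named because it overlaps G0s2. Genes given as not listed, those of the glucocorticoid list and the fat or sterol genes outside the lists were named after their values were seen. Gene models are from GENCODE M21 (GRCm38, the assembly of mm10). Python 3.11.15, numpy 2.4.6, pandas 2.3.3 and matplotlib 3.10.9 were used.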

Additional observations from a re-analysis of the deposited data

How the results depend on the processing

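Adding a pseudocount of 1 to both means gave log2 ratios of 1.43 for Pnpla2, 0.46 for G0s2 and 1.56 for Scd1, and a pseudocount of 10 gave 1.19, 0.43 and 1.35, with 0.93 for Angptl4. Scaling to equal sums over the listed genes, which is a shift of 0.36, gave 1.10 for Pnpla2, 0.10 for G0s2, 1.23 for Scd1 and 0.58 for Angptl4. Without Col1a1 in the sums, a setting chosen after seeing the data, these were 1.31, 0.31, 1.44 and 0.79. Subtracting the median of all listed genes gave 1.82, 0.82, 1.95 and 1.30. The 4 ratios kept their sign in these settings, though all rest on the same group means. An equal pseudocount cannot change a sign, and subtracting a negative median can only raise these log2 ratios. Only the scalings to equal sums could have changed a sign. The log2 change of G0s2 relative to Pnpla2 was -0.97 and -0.76 with pseudocounts of 1 and 10. No member passed an FDR of 0.1 or 0.25. Of the 19 listed genes of fat metabolism, 6 had p below 0.01 (5 higher), 11 had p below 0.02 (8 higher) and 10 differed at least 2-fold (6 higher). No paired analysis was possible because the table gives group means. Left-out replicates and other count models were not run for that reason, so whether 1 library decides a value was not tested.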

Other observations

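Lists of signals known to act on these genes were also read. Of 16 insulin and FoxO genes 0 were listed (0%, beside 7.69% of all genes tested), with Foxo1, a known activator of Pnpla2, among them. Of 20 hypoxia-response genes 1 was listed (5%), Angptl4, which is included by choice. Of 14 glucocorticoid-response genes 4 were listed (28.6%, beside 7.69% of all genes tested), 2 higher and 2 lower. Nr3c1, the glucocorticoid receptor gene, averaged 75.6 in Snai2-/- cells against 101.8 in Control cells, and Sgk1, a kinase gene induced by the receptor, averaged 107.2 in Snai2-/- cells against 187.9 in Control cells per the authors' deposited table. Hsd11b1 and the metallothionein gene Mt1 had ratios of 1.64 and 1.94 per the authors' deposited table. None of these passed an FDR of 0.05 per the authors' deposited table. The lists of signals are selections made with earlier results of the same data known, so nothing is read from their shares.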
